A study of Bos taurus with 81 samples.

Results

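The regions described here are stretches of the cattle genome that carried H3K27ac in germinal vesicle (GV) oocytes, were not called for it in embryos with 2 and 4 cells, and carried it again in embryos with 8 cells. The 29 autosomes were divided into 1 kb bins from position 0, and a bin was called marked in a peak list where peaks covered at least 50% of it. Members were the bins marked in both GV lists and both 8-cell lists of H3K27ac and in none of the 4 lists of the 2-cell and 4-cell stages, which are called the gap below. There were 7458 members among 2488055 autosomal bins (0.3%). They made up 36.7% of the 20295 bins marked in both GV and both 8-cell lists, 7.35% of the 101428 bins marked in both GV lists and 11.7% of the 63768 bins marked in both 8-cell lists. The H3K27ac lists of GV, 2C, 4C and 8C chose the members, so their values there are given as a description only.

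CUT&Tag uses an antibody against a histone mark to bring a transposase to it, which cuts and tags the DNA close by. The libraries came from bovine GV oocytes of slaughterhouse ovaries and from embryos fertilised and grown in vitro. The untreated embryos were of 2 cells (2C, 32 h after insemination), 4 cells (4C, 44 h) and 8 cells (8C, 56 h), morulae (MO, 122 h) and blastocysts (BL, 172 h). From blastocysts the authors also took the inner cell mass, ICM, and the trophectoderm, TE. ICM was obtained by immunosurgery and TE by cutting with a micro-scalpel. A further group, 8A, held 8-cell embryos of 56 h cultured with 50 μg/ml α-amanitin, a toxin that blocks RNA polymerase II. About 500 oocytes or 1000 to 1500 blastomeres were pooled for each library, and no group differed in genotype by its labels. Each of the 4 marks had 2 libraries in each group, and ATAC-seq had 3 libraries each for BL, ICM and TE. In ATAC-seq no antibody is used and the enzyme reaches chromatin that is open.

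H3K27ac is an acetyl mark on histone H3 that is placed by the acetyltransferases p300 and CBP and lies on active promoters and enhancers. H3K4me3 is placed by the MLL and SET1 methyltransferases and lies mainly at promoters, active or poised. H3K27me3, laid down by Polycomb complex PRC2, and H3K9me3 are marks of repressed chromatin. A growing oocyte transcribes its genome and then falls silent, and the cattle embryo resumes most transcription around the 8-cell stage, the major genome activation, so the gap lies in a period of low transcription.

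The files were peak lists, 1 for each library, on the ARS-UCD1.2 build, and they hold no read totals, so sequencing depth was unknown. An H3K27ac list covered between 43.4 Mb (4C replicate 1) and 142 Mb (GV replicate 2) of the autosomes, so the gap lists were also among the shorter ones (55 and 67.8 Mb at 2C, 43.4 and 44 Mb at 4C). Replicates of the gap shared few marked bins, with Jaccard indices (bins shared by both lists over bins in either) of 0.296 at 2C and 0.295 at 4C, against 0.581 at GV and 0.497 at 8C. An unmarked bin in the gap is thus a bin without a called peak, and weak H3K27ac there cannot be told apart from none. Nothing in the labels says that the 2 libraries of a group came from separate cultures, so the spread between them may be technical. With 2 libraries a group no exact two-sided test can go below p = 0.33, and the members were chosen on these data, so shares are given beside those of all bins and of comparison sets, without a p. Neighbouring bins share peaks and are not independent, and stages were measured in different embryos.

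Members were small and scattered. Joined where they touched, they formed 6064 runs, of which 4988 (82.3%) were a single bin and 229 (3.78%) were 3 kb or longer. On average 81% and 84.5% of a member was covered in the GV lists and 85.1% and 83.3% in the 8C lists. The peaks over members had median widths of 1.35 and 1.55 kb at GV and 1.65 and 1.5 kb at 8C, where the medians of all peaks were 0.6, 0.8, 0.9 and 0.85 kb. By score, a number per peak given by the authors that was used only for rank within a list, these peaks had median percentiles of 87.4 and 86.1 at GV and 86.4 and 85.5 at 8C. The rule requires coverage of a bin in these lists and so favours wide peaks, and nothing is read from these widths and ranks.

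Members lay on all 29 autosomes. The share of bins that were members was lowest on chromosome 12 (0.161%, 140 members) and highest on chromosome 18 (0.71%, 467 members), followed by chromosome 19 (0.697%, 442 members). As a share of the bins marked in both GV and both 8C lists, members ranged from 28.7% on chromosome 29 to 44.1% on chromosome 20, and chromosomes 18 and 19 stood at 35.5% and 36.2%. Chromosomes dense in members were thus also dense in bins marked at GV and 8C.

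The gap was bare for some members and thinly marked for others. In 3275 members (43.9%) no base was covered in any of the 4 gap lists, while the other 4183 (56.1%) held some H3K27ac peak that covered less than 50% of the bin. Single lists left 84.8% and 83.3% of members untouched at 2C and 64.3% and 69.5% at 4C. By distance, 4324 members overlapped or touched a gap peak, 1402 lay up to 1 kb from one, 1252 lay 1 to 10 kb away and 480 (6.44%) lay farther than 10 kb. Of the runs, 3024 (49.9%) had no neighbouring bin marked in a gap list, 2524 (41.6%) had one on 1 side and 516 (8.51%) on both sides. By stage, 1315 members had some base covered at both 2C and 4C, 604 at 2C only and 2264 at 4C only. Partial coverage was thus more often seen at 4C than at 2C. The 4C lists held more peaks (91157 and 87470) than the 2C lists (66434 and 71579). They covered less of the autosomes (43.4 and 44 Mb against 55 and 67.8 Mb), so 4C peaks were shorter on average. A short peak reaches 50% of a bin less easily. The 1315 and 2264 members partly covered at 4C held part of a 4C peak without a 4C call. How far peak length goes with the excess at 4C was not tested.

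**Figure D1:**
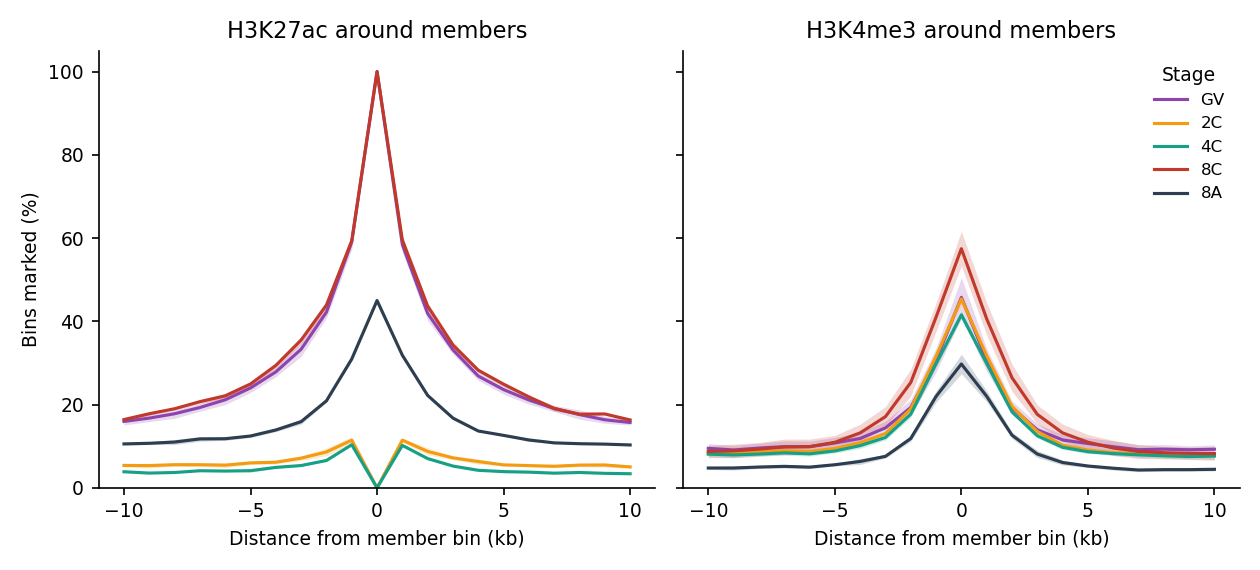
Percentage of bins marked by H3K27ac (left) and H3K4me3 (right) at 0 to 10 kb on either side of the 7458 members. Lines are means of the 2 libraries of a stage and shading spans them. At distance 0 the H3K27ac values of GV, 2C, 4C and 8C are 100% or 0% by the rule. The 8A lines peak at the member bins in both marks, and so do the H3K4me3 lines of 2C and 4C.

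The H3K27ac values at the members themselves were fixed by the rule at GV, 2C, 4C and 8C, so the flanks are given. At 10 kb downstream the 8C H3K27ac lists marked 16.8% and 15.8% of bins, while the 2C lists marked 4.71% and 5.35% and the 4C lists 3.53% and 3.24%. Over all autosomal bins these lists also differed, at 3.88% and 3.84% at 8C, 2.34% and 2.91% at 2C, and 1.26% and 1.36% at 4C. In bins next to a member on that side the 2C lists reached 10.9% and 12% and the 4C lists 10.4% and 10%. H3K4me3 in 2C embryos marked 44.2% and 46.6% of members and 7.99% and 8.42% of bins 10 kb away, against 4.76% and 4.72% of all bins.

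The first question was whether H3K27ac came back when transcription was blocked. Under α-amanitin, H3K27ac marked 44.5% of members in replicate 1 and 45.5% in replicate 2 (45% ± 0.73, SD, n = 2). Both 8A lists marked 2471 members (33.1%), where 2.65% of all autosomal bins were marked in both. Neither 8A list marked 3220 members (43.2%, against 94.7% of all bins), and 1767 (23.7%) were marked in 1 of the lists. More members were thus marked in neither treated library than in both. In lists shortened by score to 43.4 Mb, the length of the shortest, the 8A lists marked 25.1% and 24.4% of members and 15.9% in both, where the shortened 8C lists marked 68.4% and 67.3%. The 8C lists chose the members, which raises their shares there, so this contrast is a description only.

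The 8A shares can be set against an untreated library that did not choose the bins. Bins marked in both GV lists, in no gap list and in 8C replicate 1 numbered 10373, and 71.9% of them were also marked in 8C replicate 2, 38.5% in 8A replicate 1 and 39.8% in 8A replicate 2. For the 9951 bins picked with 8C replicate 2 the shares were 74.9% in 8C replicate 1, 40.1% in 8A replicate 1 and 41.3% in 8A replicate 2. Each treated library thus marked fewer of these bins than the untreated library left out, and the distance was far larger than that between the 8A replicates. The 8A lists covered 101 and 97.7 Mb of the autosomes and the 8C lists 90.5 and 89.7 Mb.

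A bin that had been marked in the oocyte was marked in 8A more often than one first marked at 8C. Of the 27236 bins in both 8C lists and in no GV or gap list, the 8A lists marked 19.3% and 20.9%, and 12.4% were marked in both. The members exceeded them by 20.8 percentage points in the share marked in both. The sets differ in H3K4me3, and within its classes they lay closer, at 13.5% of members and 8.93% of these bins with H3K4me3 in no gap list, and at 63.9% and 53.3% with it in all 4. For picks with 1 library, 57% and 57.3% of the bins without GV marking recurred in the other 8C list, so part of the distance to the members was also present among untreated replicates. Among 49292 bins marked in both GV lists and in no gap or 8C list, 6.29% and 7% were marked in the 8A lists. In the 2216 bins marked in every list from GV to 8C, each 8A list marked 97.4%. The 4 sets share libraries that chose them, so these contrasts are descriptions.

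**Figure D2:**
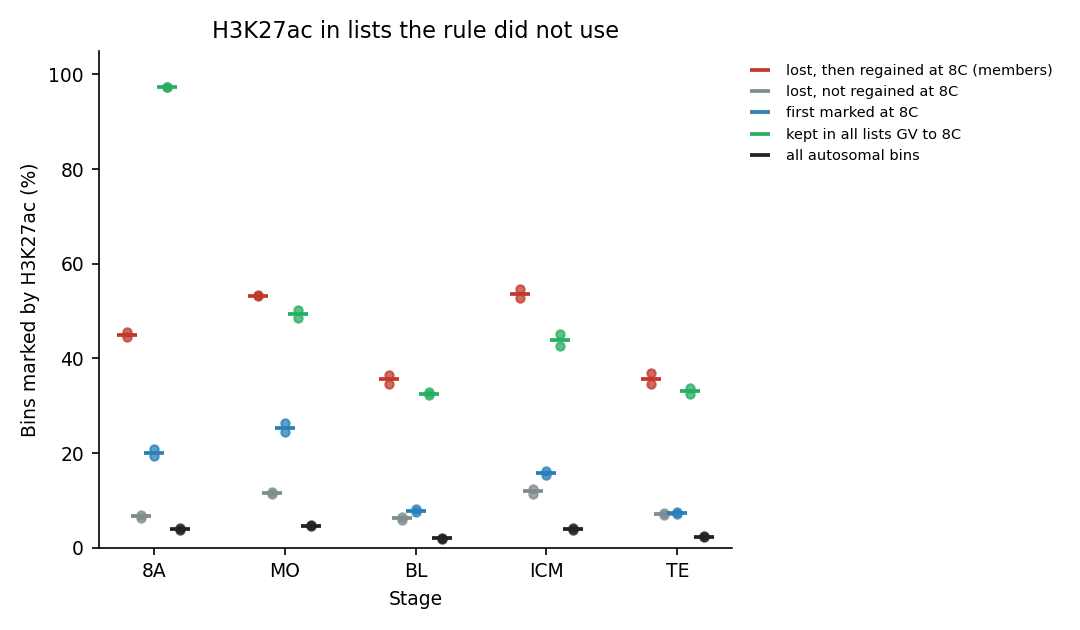
Percentage of bins marked by H3K27ac in lists that did not choose the members. Each point is 1 library and each dash the mean of 2. Members (red) lie at 44.5% and 45.5% in 8A, between bins first marked at 8C (blue) and bins kept in all lists (green). From MO on members lie above both.

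How often H3K27ac was called at or near a bin in the gap went with the outcome under α-amanitin. Among the 20295 bins marked in both GV and both 8C lists, both 8A lists marked 33.1% of those in 0 gap lists, 60.2% of 4591 in 1, 77.4% of 3404 in 2, 89.3% of 2626 in 3 and 95.9% of 2216 in all 4. The share marked in both MO lists followed no such order, at 47.2%, 50.6%, 50.2%, 50.3% and 45.2%. Within the members, both 8A lists marked 20.2% of the 3275 with a bare gap and 43.3% of the 4183 with a partly covered gap. They marked 42.8% of members that overlapped or touched a gap peak, 23% of those up to 1 kb away, 17.3% of those 1 to 10 kb away and 17.3% of those farther away. At the edge of the rule, members whose best covered gap list reached 40 to 49% of the bin (1575) were marked in both 8A lists in 51.7% of cases, and bins just outside at 50 to 59% (2035) in 62.8%. At the other edge, members whose least covered GV or 8C list reached 50 to 59% (2202) stood at 25.4% and bins just outside at 40 to 49% (2733) at 19.9%.

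The members marked in both 8A lists also had the higher-ranked peaks in control embryos. Their median score percentiles in the 8C lists were 89.9 and 90.1, while members marked in neither 8A list stood at 82.3 and 80.4. In the GV lists the medians were 90.2 and 87.8 against 85.3 and 84.2. The GV and 8C lists chose the members, so these ranks are a description only. In the 8C lists, members with H3K4me3 in all 4 gap lists stood at 89.9 and 89.5, and members with it in none at 80.1 and 79.6. In 8A itself the peaks over marked members were narrower than at 8C, with median widths of 0.95 and 1.05 kb, but so were all 8A peaks (0.55 and 0.75 kb).

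The next question was what H3K4me3 did in the gap. H3K4me3 marked 44.2% and 46.6% of members at 2C (45.4% ± 1.73, SD, n = 2) and 40.6% and 42.5% at 4C (41.6% ± 1.37). Both 2C lists marked 2737 members (36.7%, against 3.44% of all bins) and both 4C lists 2542 (34.1%, against 3.04%). In single lists of all autosomal bins the shares were 4.76% and 4.72% at 2C and 3.85% and 4.52% at 4C. All 4 gap lists of H3K4me3 marked 2133 members (28.6%, against 2.43% of all bins) and none marked 3044 (40.8%, against 93% of all bins). Between them, 901 members were marked in 1 list (12.1%, against 2.17% of all bins), 605 in 2 (8.11%, against 1.27%) and 775 in 3 (10.4%, against 1.14%).

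H3K4me3 in the gap was less common at the comparison sets that also lacked H3K27ac there. It was present in all 4 lists at 4.76% of the bins lost and not regained and at 3.73% of the bins first marked at 8C, and at 81.9% of bins that kept H3K27ac throughout. Among bins of the same GV and 8C marking, the share with H3K4me3 in all 4 lists was 28.6% where no gap list had H3K27ac, 49.1% where 1 had, 61.2% where 2 had, 69.1% where 3 had and 81.9% where all had.

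**Figure D3:**
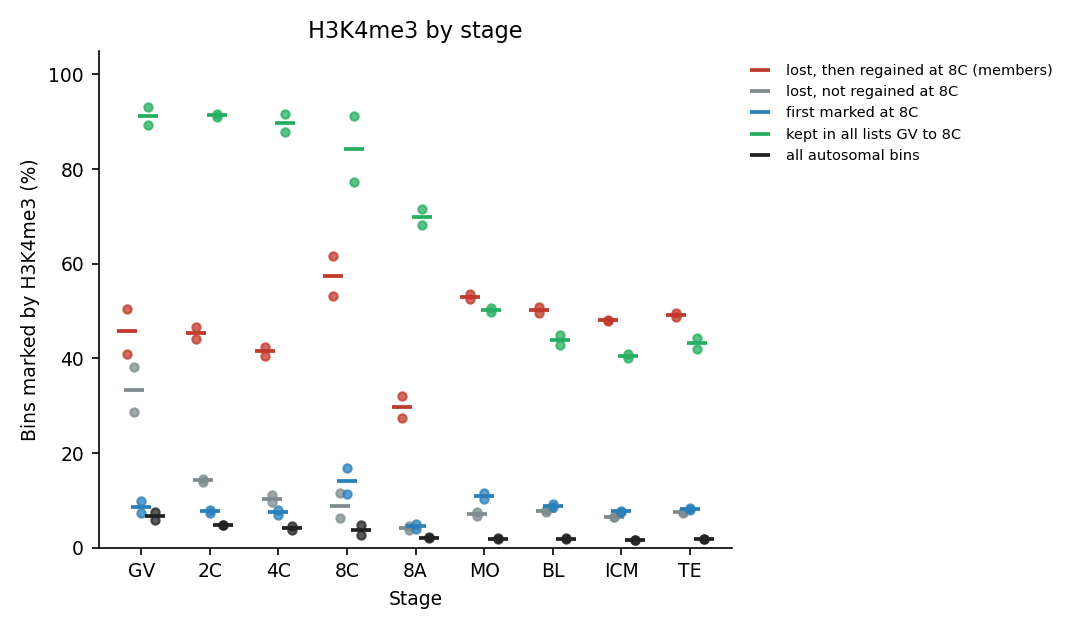
Percentage of bins marked by H3K4me3 in each library (points) and the mean of a stage (dashes), for members and 4 other sets of bins. Members (red) stay between 40.6% and 50.5% from GV to 4C, reach 53.3% and 61.6% at 8C, and lie at 32.1% and 27.4% in 8A.

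Over the stages H3K4me3 followed its own course. At GV it marked 41% and 50.5% of members, and in both lists 2541 members (34.1%, against 4.79% of all bins). At 8C it marked 53.3% and 61.6%, and 3822 members in both lists (51.2%, against 2.54% of all bins). In 8A the shares were 32.1% and 27.4%, with 1685 members in both lists (22.6%, against 1.54% of all bins), so neither treated library reached either control library. The H3K4me3 lists of 8A were shorter than those of 8C (60.4 and 52.2 Mb against 68.6 and 112 Mb). With all H3K4me3 lists shortened by score to 37.7 Mb, the shares were 43.3% and 34.8% at 8C and 23.6% and 22.7% in 8A. Shortened in this way, the gap lists marked 17% and 18.4% of members at 2C and 21.8% and 18.5% at 4C, and the GV lists 9.79% and 7.15%, and 7.23% of members were in all 4 gap lists. Whether H3K4me3 was as common at GV as in the gap therefore depended on list length, while the difference between 8C and 8A kept its direction.

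Seen bin by bin, 1510 members (20.2%, against 1.4% of all bins) had H3K4me3 in all 8 lists from GV to 8C. There the methyl mark was called throughout, while the lack of the acetyl mark in the gap was set by the rule. Another 1615 (21.7%, against 89.4% of all bins) had H3K4me3 in none of the 8 lists. The H3K4me3 gap lists were longer (94.7 to 114 Mb) than the H3K27ac gap lists (43.4 to 67.8 Mb). With H3K4me3 lists shortened to 37.7 Mb, GV replicate 2 marked 7.15% of members. No larger share could then have it in all 8 lists. H3K4me3 appeared first at 8C, in both lists, in 274 members (3.67%, against 0.119% of all bins). The same course as H3K27ac, present at GV and 8C and absent from all gap lists, was seen for H3K4me3 in 24 members (0.322%, against 0.0116% of all bins).

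H3K4me3 in the gap and H3K27ac under α-amanitin went together across members. Of the 2133 members with H3K4me3 in all 4 gap lists, 75.7% and 75.1% were marked by H3K27ac in the 8A lists, and 63.9% in both. Of the 3044 with H3K4me3 in none, 21.9% and 24.4% were marked, and 13.5% in both. In between, both 8A lists marked 22.2%, 28.9% and 41.5% of members with H3K4me3 in 1, 2 and 3 gap lists. The share marked in neither list went the other way, from 67.1% with no gap H3K4me3 to 13.1% with all 4.

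**Figure D4:**
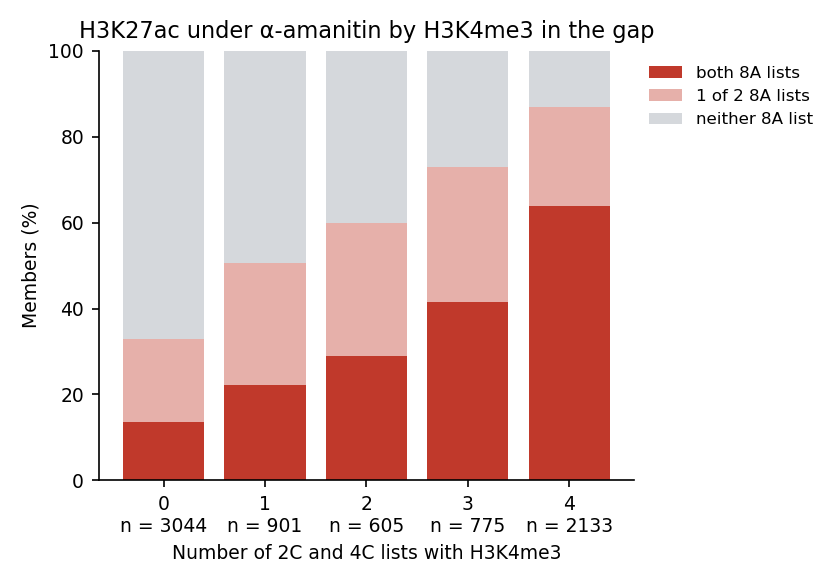
Percentage of members marked by H3K27ac in both, 1 or neither of the 8A lists, by the number of 2C and 4C lists (0 to 4) in which H3K4me3 marked the member. The part marked in both lists is 13.5% with no H3K4me3 list and 63.9% with 4.

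The same split was present where the gap was bare of H3K27ac. There both 8A lists marked 52.2% of 697 members with H3K4me3 in all 4 gap lists and 7.52% of 1742 members with none. It was also present outside the members. Bins first marked at 8C were marked in both 8A lists in 53.3% of cases with H3K4me3 in all gap lists (1017 bins) and in 8.93% with none (23731 bins), and over all autosomal bins the shares were 52.7% and 0.657%. The split was therefore not peculiar to sites with an oocyte history. Untreated replicates differed far less between the classes. Picked with 8C replicate 1 or 2, bins with GV marking and H3K4me3 in all gap lists recurred in the other 8C list in 81.6% and 86.6% of cases, and bins with none in 65.2% and 67%.

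In 8A embryos H3K4me3 itself was called in both lists at 66% of members that had it in all gap lists and at 96.2% of them in 8C. At members with no gap H3K4me3 the shares were 0.361% in 8A and 12% in 8C. Of the 2471 members with H3K27ac in both 8A lists, 46.2% also had H3K4me3 in both 8A lists and 16.6% had had none in the gap. A set of 410 members (5.5%) combined H3K27ac in both 8A lists with no gap H3K4me3. They were 13.5% of the members with no gap H3K4me3, against 0.657% of all autosomal bins with none. A set of 280 (3.75%) had H3K4me3 in all gap lists and no H3K27ac in 8A, and its share among all bins was not computed.

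The fate of members after genome activation was followed in lists the rule had not used. At MO, H3K27ac marked 53.1% and 53.5% of members (53.3% ± 0.303, SD, n = 2), and 3518 members in both lists (47.2%, against 3.54% of all bins). In ICM it marked 54.6% and 52.8% (53.7% ± 1.27) and in TE 34.6% and 36.9% (35.7% ± 1.63). Both ICM lists marked 3761 members (50.4%, against 3.21% of all bins) and both TE lists 2339 (31.4%, against 1.89%). Whole blastocysts stood near TE, with 34.6% and 36.6% and 2405 members in both lists (32.2%, against 1.71% of all bins). MO and ICM lists covered more sequence (115, 113, 98.2 and 91.3 Mb) than TE and BL lists (57.5, 60.3, 49 and 55.1 Mb). In lists shortened to 43.4 Mb the shares of members were 31.9% and 30.6% at MO, 33.4% and 33.8% in BL, 40.3% and 39.9% in ICM and 30.3% and 31.9% in TE. ICM thus remained above TE in these libraries, by less, and MO no longer stood apart from TE.

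Members were marked later more often than bins with H3K27ac at GV alone or at 8C alone. Both MO lists marked 21% of bins first marked at 8C and 8.89% of bins lost and not regained, both ICM lists 13.4% and 10.1%, and both TE lists 6.04% and 5.9%. Bins kept from GV to 8C stood at 45.2%, 40.3% and 30.5%, where members stood at 47.2%, 50.4% and 31.4%. These 2 sets differ in gap H3K4me3, and where all 4 gap lists had it they lay farther apart in MO, ICM and TE. With H3K4me3 in all 4 gap lists members stood at 70.3%, 79.2% and 58.2%, and kept bins at 48.5%, 45% and 35%. With it in none, members stood at 30.8%, 27.1% and 13.1%, and the 65 kept bins at 35.4%, 21.5% and 7.69%. In that class members lay below kept bins in MO, and the sets lay closer in ICM than without the split. Bins marked in 1, 2 or 3 gap lists stood above members in both TE lists, at 37.7%, 36.3% and 35.8%, and in both MO lists, at 50.6%, 50.2% and 50.3%.

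Followed together, 2016 members (27%, against 0.979% of all bins) were marked in both MO, both ICM and both TE lists. At the other end, 2387 (32%, against 92% of all bins) were marked in no list of these groups, and both BL lists marked 0.0419% of them. MO and ICM without TE were marked in 540 members (7.24%, against 0.684% of all bins), MO alone in 376 (5.04%, against 1.13%) and ICM alone in 227 (3.04%, against 0.564%). ICM and TE without MO were marked in 75 (1.01%, against 0.154%) and MO and TE without ICM in 20 (0.268%, against 0.0839%). TE alone was marked in 28 members (0.375%), near the 0.307% of all bins. A further 1789 (24%, against 4.13% of all bins) had at least 1 pair of replicates that differed. Of members marked in both MO lists, 83% were marked in both ICM and 58.5% in both TE lists, and of the 3024 marked in neither MO list 12.4% and 3.74% were.

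Between the lineages, H3K27ac marked 982 members in both ICM lists and no TE list (13.2%, against 1.53% of all bins) and 56 in both TE lists and no ICM list (0.751%, against 0.447%). With lists of one length the calls were 583 members in ICM only (7.82%, against 0.53% of all bins) and 156 in TE only (2.09%, against 0.618%). Both lineages marked 2244 members (30.1%, against 1.28% of all bins). Of the 982, 57.5% had H3K4me3 in both 8C lists and 40.9% and 41% were marked by H3K27ac in the 8A lists.

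H3K4me3 in the gap also went with later H3K27ac. With H3K4me3 in all gap lists 75.4% and 75.2% of members were marked at MO, 83% and 80.1% in ICM and 62.3% and 64.1% in TE. With none, the shares were 36.5% and 37.6% at MO, 30.8% and 30.6% in ICM and 15.1% and 16.2% in TE. The ICM-only share of all members of a class hardly differed between them, at 12.1% and 12.5%. Both ICM lists marked 79.2% and 27.1% of these classes, so ICM-only members were a larger part of the ICM-marked ones where gap H3K4me3 was absent. With H3K4me3 in 1, 2 and 3 gap lists the ICM-only share was 15.2%, 12.2% and 17%. Members in both 8A lists were marked in both MO lists in 59.7% of cases and members in neither in 37.7%, with 65.8% and 37.4% in ICM and 46.8% and 19.1% in TE. Among members without gap H3K4me3, 410 were in both 8A lists and 2042 in neither. Of these, 26.1% and 32.1% were marked in both MO lists, 25.1% and 27.6% in both ICM lists, and 13.7% and 13.3% in both TE lists, so the higher shares of members in both 8A lists were not seen there in MO and ICM, and TE hardly differed. Among members with H3K4me3 in all gap lists the higher shares were seen, with 1364 in both 8A lists and 280 in neither. There 73% and 62.1% were marked in both MO lists, 80.9% and 73.9% in both ICM lists, and 61.2% and 46.4% in both TE lists.

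**Figure D5:**
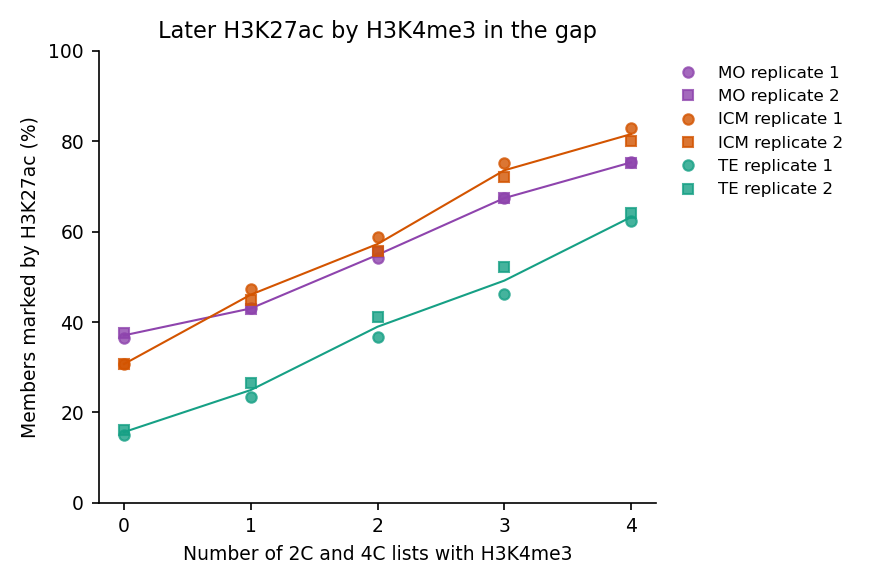
Percentage of members marked by H3K27ac at MO, in ICM and in TE, by the number of 2C and 4C lists with H3K4me3. Circles and squares are replicates 1 and 2 and lines join their means. MO runs from 36.5% and 37.6% with no list to 75.4% and 75.2% with 4, and TE lies below ICM at every point.

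H3K4me3 at members stayed common after the 8-cell stage. Both lists marked 3791 members at MO (50.8%, against 1.65% of all bins), 3596 in BL (48.2%, against 1.73%), 3401 in ICM (45.6%, against 1.37%) and 3500 in TE (46.9%, against 1.64%). Unlike H3K27ac, it was as frequent in TE (49.5% and 48.8%) as in ICM (47.9% and 48.2%). Members with H3K4me3 in all gap lists had it in both MO lists in 90.8% of cases, and members with none in 17.9%.

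Open chromatin in the blastocyst was frequent at members. All 3 ATAC lists marked 3083 members in BL (41.3%, against 2.35% of all bins), 3137 in ICM (42.1%, against 2.21%) and 2979 in TE (39.9%, against 2.31%). In single lists the shares ran from 43.9% to 53.4% in BL, from 46.6% to 52.6% in ICM and from 45.3% to 50.4% in TE, so the lineages overlapped. With H3K4me3 in all gap lists 84.7% of members were open in all ICM lists and 82.6% in all TE lists, and with none 12% and 10.1%. Of members with H3K27ac in ICM only, ATAC marked 57.1%, 66.4% and 55.9% in the ICM lists and 43.3%, 52.9% and 43.7% in the TE lists.

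Repressive marks were sparse at members in the early embryo. H3K27me3 marked both lists at 277 members at GV (3.71%, against 7.28% of all bins), 41 at 2C (0.55%, against 3.41%), 73 at 4C (0.979%, against 4.56%) and 37 at 8C (0.496%, against 4.31%). H3K9me3 marked both lists at 5 members at GV (0.067%, against 5.82% of all bins), 29 at 2C (0.389%, against 3.75%), 54 at 4C (0.724%, against 5.39%) and 64 at 8C (0.858%, against 5.42%). The lack of H3K27ac calls in the gap was thus rarely accompanied by a called repressive mark. In the bins lost and not regained, both lists had H3K27me3 at 4.33% and H3K9me3 at 4.71% at 4C. In 8A, H3K27me3 marked 94 members in both lists (1.26%, against 4.7% of all bins) and H3K9me3 138 (1.85%, against 5.89%). At MO, H3K27me3 marked 303 members in both lists (4.06%, against 5.26% of all bins). From MO on H3K9me3 stayed sparse, with both lists at 157 members at MO (2.11%, against 3.99% of all bins), 175 in BL (2.35%, against 3.45%), 138 in ICM (1.85%, against 3.11%) and 174 in TE (2.33%, against 4.89%). The lists of these marks were called on a 200 bp grid and those of the active marks on a 50 bp grid, so shares of different marks are not compared with each other.

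By the blastocyst H3K27me3 at members was near the level of all bins. Both lists marked 677 members in BL (9.08%, against 9.66% of all bins), 608 in ICM (8.15%, against 8.58%) and 684 in TE (9.17%, against 9.62%). It lay mostly at members without later H3K27ac. Of the 2387 members without H3K27ac at MO, ICM and TE, the ICM lists marked 23.4% and 20.9% and the TE lists 24.8% and 24.8%. Of the 2244 with H3K27ac in both lineages, the ICM lists marked 0.446% in each replicate and the TE lists 0.0891% in each. Bins lost and not regained had H3K27me3 in both BL lists in 25.4% of cases.

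Single runs show these courses at full scale, as the percentage of the run covered in replicates 1 and 2. The longest was chr15:84825001-84834000, 9 kb, where H3K27ac covered 96.7% and 97.2% at GV, 0% in both 2C lists, 13.9% and 0% at 4C, and 80.6% and 83.9% at 8C. In 8A it covered 56.1% and 61.1%, and from MO on it covered 0% in each list. H3K4me3 there covered 24.4% and 27.8% at 2C and 19.4% and 17.2% at 4C. H3K9me3 covered 95.6% and 82.2% of the run at 8C, and from MO to TE both repressive marks covered 100% in each list. H3K27me3 was already there in the gap, with 82.2% in both 2C lists and 91.1% and 100% at 4C. This run thus held H3K27ac and H3K9me3 peaks at once at 8C, which single lists of pooled embryos cannot place on the same or on different cells.

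Of the 4 runs of 6 kb, 2 are given for their length. At chr9:50416001-50422000, H3K27ac covered 80.8% and 75% at GV, at most 11.7% in a gap list, 89.2% and 84.2% at 8C, 32.5% and 48.3% in 8A, 58.3% and 44.2% at MO, 59.2% and 54.2% in ICM, and 24.2% and 23.3% in TE. At chr13:20306001-20312000 it covered 85% and 90% at GV, at most 4.17% in a gap list, 83.3% and 92.5% at 8C, and 26.7% and 16.7% in 8A, and it was at 0% in all MO, BL, ICM and TE lists.

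Runs marked throughout in both 8A lists were short. The longest was chr11:64805001-64809000, 4 kb, where H3K27ac covered 82.5% and 76.2% in 8A, and H3K4me3 covered 80% and 73.8% at 2C and 77.5% and 72.5% at 4C. H3K27ac was then at 8.75% and 0% at MO and at 0% in BL, ICM and TE, while H3K4me3 still covered 60% and 51.2% in ICM and H3K27me3 covered 100% of the run in every list from MO to TE. At chr1:10690001-10693000, 3 kb, H3K27ac covered 0% in both 2C lists, 85% and 88.3% in 8A, and 100% in both TE lists.

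Runs with no bin marked in any 8A list were led by chr28:30873001-30879000, 6 kb. There H3K27ac covered 95.8% and 90.8% at 8C, 0% in both 8A lists, and 68.3% and 85% at MO, and H3K4me3 covered 10.8% and 0% at 2C and 0% at 4C. H3K27me3 covered 76.7% and 100% of it at 2C, 100% and 63.3% at 4C, 0% in both 8C lists, and 100% and 66.7% in 8A. H3K9me3 covered 63.3% and 20% at 8C and 100% in both 8A lists. This run, unlike most members, held repressive marks in the gap and under α-amanitin. The next was chr3:20355001-20360000, 5 kb, with 82% and 79% at 8C and 9% and 6% in 8A. Among runs with H3K4me3 in all gap lists in every bin the longest was chr18:55161001-55165000, 4 kb. H3K4me3 covered 76.2% and 82.5% of it at 2C and 87.5% and 88.8% at 4C, and H3K27ac covered 83.8% and 73.8% in 8A. H3K27me3 covered 100% of that run in both GV lists and 0% in both lists of every later group.

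The longest run marked in all MO, ICM and TE lists was chr18:2351001-2356000, 5 kb. It had no base of H3K27ac or H3K4me3 in any 2C, 4C or 8A list, and H3K27ac covered 88% and 82% at 8C and 98% in both ICM lists. For ICM only, 4 runs of 3 kb tied, and the first was chr9:14820001-14823000, with 100% and 98.3% in ICM, 8.33% and 10% in TE, and 0% in both 8A lists. ATAC covered 46.7%, 48.3% and 48.3% of it in ICM and 0% in the TE lists. For TE only, 45 single bins tied, and the first was chr1:126443001-126444000, covered fully in both TE lists and at 0% in ICM and MO. H3K4me3 covered 100% and 70% of that bin in TE and 0% in ICM. ATAC did not separate the lineages there, with 55%, 50% and 10% covered in TE and 40%, 50% and 15% in ICM.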

How the data were processed

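Peak lists of 81 libraries were used, 1 per library. The build was ARS-UCD1.2 and SICER was the peak caller listed, per the submitters' processing notes, which also list BWA 0.7.9a, SAMtools 1.9, Picard 2.26.10, Trim Galore 0.4.0 and cutadapt 1.8.3. The lists themselves are named for epic2, and which caller made them is not settled. For cutoffs and control libraries the sources used here give nothing. The deposited score of each peak, a whole number the authors left unnamed, was used only for rank within a list. Deposited ends lie 1 base below the grid of the caller, so 1 base was added.

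Coverage of 1 kb bins and all shares were computed with Python 3.11.15 and NumPy 2.4.6, and the binning was tested on simulated data. The chromosome ends were taken from the last peak. Groups and replicates came from the titles. Alternatives were other coverage limits, bin positions and widths, lists shortened by score, a bare gap, the X chromosome and each replicate left out.

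Members, comparison sets and named regions (the longest runs of each kind, ties to the lower position) were chosen with earlier results of these data known. Gene names and sequences are not reported, since the gene table at hand is of another assembly.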

Additional observations from a re-analysis of the deposited data

Results flagged for a closer look

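The X chromosome was outside the rule, and 178 of its bins met it (0.128% of 139010), which is a signal in data the comparisons did not use. In 8A, H3K27ac marked 41.6% and 40.4% of these bins, and 30.9% in both lists.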

How the results depend on the processing

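The main limits are that depth is unknown, that the gap lists were short and differed between replicates, and that a score ranks peaks within 1 list only. No paired analysis was possible because the shares are counts of bins with no fitted test, so there is no model for a replicate block to enter. No listed difference changed sign, and causes of the movements were not tested. Below, values come in 1 order where they moved: number of members, percent in both 8A lists, its excess over bins first marked at 8C, its excess with H3K4me3 in all gap lists over none, percent with H3K4me3 in all gap lists, and percent in both MO, both ICM and both TE lists.

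Bins of 2 kb gave 4320 members, 36.2% in 8A with an excess of 23.3 points, 32.1% with H3K4me3, 49.1% in MO, 54.6% in ICM and 35% in TE. A coverage limit of 25% gave 32.3% in 8A with an excess of 20.3, 26.8% with H3K4me3 and 49.6% in MO. A limit of 75% gave an excess of 22.1 and 54.6% in ICM. Any covered base gave 31.9% in 8A with an excess of 19.7, 50.4% in MO, 48.7% in ICM and 33.7% in TE. Bins started at position 500 gave an excess of 21.6 and 46.8% in MO. A gap with no base covered left 3275 members, 20.2% in 8A with an excess of 13.9, an H3K4me3 contrast of 44.7, 21.3% with H3K4me3, 46.4% in MO, 47.6% in ICM and 28% in TE. With every list shortened, members included, 2116 members gave 28.8% in 8A with an excess of 19.5, 15.3% with H3K4me3, 43.1% in MO, 58.7% in ICM and 41.2% in TE.

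2 alternatives were chosen after seeing the data. Ends as deposited gave an excess of 21.2. Shortened lists with the members as reported gave 15.9% in 8A with an excess of 12, an H3K4me3 contrast of 47.5, 7.23% with H3K4me3 in all gap lists, 25.9% in MO, 37.1% in ICM and 26.8% in TE. MO lay just below TE there in the share in both lists, while their single lists overlapped (31.9% and 30.6% in MO, 30.3% and 31.9% in TE). H3K4me3 at GV (9.79% and 7.15%) lay below 2C (17% and 18.4%). H3K4me3 in ICM hardly moved, at 47.9% and 47.8%. H3K27me3, H3K9me3 and ATAC lists were not shortened.

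Leaving out each library in turn gave 8335 to 10373 members, 27.8% to 45.5% in 8A, an excess of 17.6 to 25.2 points, an H3K4me3 contrast of 47.2 to 53.8, 24.3% to 32.2% with H3K4me3, 41.3% to 53.5% in MO, 44.5% to 54.6% in ICM and 26.9% to 36.9% in TE. Leaving out a list of the rule can only add members, so each count exceeds the 7458 reported. The highest shares in 8A, MO, ICM and TE came from leaving out a library of that group, so they are shares in 1 list. The ICM-only share was 12% to 17.6% and the TE-only share 0.722% to 1.26%, the highest without TE replicate 1.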
